A study of Mus musculus with 89 samples.

Results

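The lung response of BALB/c mice to the mould allergen Aspergillus fumigatus (Af) was measured 24 h after an intranasal challenge, across all genes, on 3 Af arrays against 5 air arrays out of 89 arrays in the series. The series covered 3 strains (BALB/c, C57BL/6 and SP-D-/-, mice that lack surfactant protein D) in 18 groups, each sampled as RNA of the left lung lobe on Affymetrix HT Mouse430PM arrays. All mice were male and 7 to 8 weeks old. The Af group was sensitized by intraperitoneal injection on days 0 and 7, challenged on day 13, breathed air for 2 h and was killed 12 h after the air and 24 h after the challenge. The air group breathed air for 2 h and was killed 12 h later, with neither sensitization nor challenge, so the comparison holds both steps of the allergen protocol together. The Af arrays were replicates 1, 2 and 3 and the air arrays replicates 1, 2, 3, 4 and 6. Af replicates 4 and 5 were left out because their lung markers were far from those of the other BALB/c arrays: the mean log2 signal of 12 alveolar type 2 cell markers was 9.41 and 7.92 on them, against 10.4 to 10.8 on the 8 arrays used. Nothing in the labels beyond the replicate numbers says that the arrays are separate animals, so the p-values measure the spread between arrays.

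In allergic airways, helper T cells and innate lymphoid cells release IL-4, IL-5 and IL-13. IL-4 and IL-13 bind receptors that contain IL-4 receptor alpha and activate the transcription factor STAT6, which turns on target genes in macrophages and airway epithelium. IL-33, an alarmin held in the nuclei of lining cells, can drive release of these cytokines, and chemokines of the CCL family draw eosinophils and monocytes into the tissue. Club cells, the secretory cells of mouse bronchioles, carry secretoglobins and the enzymes that metabolize inhaled chemicals, and ciliated cells beside them move the mucus.

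Values are log2 signals, in which 1 unit is a 2-fold difference, on a scale from 1.86 to 13.5. A change is the Af mean minus the air mean, given ± its standard error (SE) from a limma fit of the group means of 87 arrays. A gene was called at a Benjamini-Hochberg adjusted p under 0.05 over the 12924 genes tested, and "rose" and "fell" are used of called genes only. A gene was tested where at least 3 of the 8 arrays were above 4.45, so a gene can pass through the group where it is high alone, which sets its direction. Of the genes tested, 10917 were above that level on all 3 Af and at least 3 air arrays, written as "above the filter in both groups", with a median change of 0.07, and lists are also counted over these members, a choice made after seeing the data. Of these 10917 genes 378 rose and 224 fell, and 6042 were higher and 4874 lower. In 1614 of them all Af values lay below all air values. Where a group lies at or under that level, a change is a difference in signal and not a fold in RNA, and its size may understate the change.

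Of the 12924 genes tested, 398 rose (3.08%) and 297 fell (2.3%), 695 together (5.38%), and 2454 had an unadjusted p under 0.05. The list counts below are to be read beside these shares. The median change of all genes was 0.03. The median rise was 1.16 and the median fall -1.46, and 64 genes fell by over 2 log2 units (4-fold) where 30 rose by as much. All 3 Af values lay above all 5 air values in 1769 genes (13.7%) and below them in 1918 (14.8%), and 387 of the rising and 287 of the falling genes were among these. The count of calls depended on single Af arrays, with 166 calls without Af replicate 3 and 379 without Af replicate 2. The actin difference, the log2 signal of the 3' minus the 5' beta-actin control probe set and a sign of RNA quality, was 2.13, 3.18 and 3.37 on Af replicates 1, 2 and 3, against 1.60, 1.64, 1.43, 1.54 and 2.34 on air replicates 1, 2, 3, 4 and 6. It was higher by 1.18 on average and overlapped at the lowest Af and the highest air array (exact permutation test, two-sided, p = 0.0714, adjusted p = 0.143 over 2 measures, smallest p possible 0.0357). With the actin difference as a covariate 167 genes rose and 53 fell, of which 193 were among the 695. Its part in the results was not tested beyond these values.

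**Figure D1:**
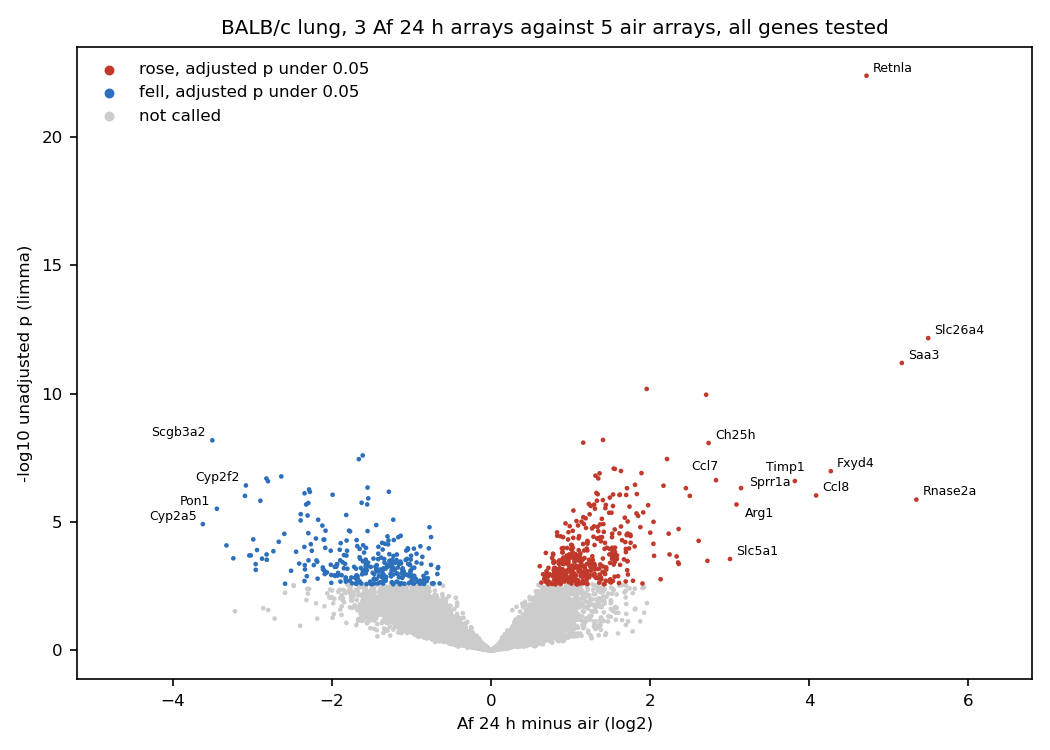
Change (Af 24 h minus air, log2, x axis) against the unadjusted limma p (-log10, y axis) for all genes tested, 1 point per gene, with called genes in red (rose) and blue (fell) and grey for genes not called. The 12 largest rises and 4 of the largest falls are named, and Retnla and Slc26a4 stand highest.

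The 12 largest rises were Slc26a4, Rnase2a, Saa3, Retnla, Fxyd4, Ccl8, Timp1, Sprr1a, Arg1, Slc5a1, Ccl7 and Ch25h. The 12 largest falls were Cyp2a5, Scgb3a2, Pon1, Fabp1, Sult1d1, Tmem212, Cyp2f2, Tspan12, Fam47e, Hoatz, Abi3bp and Cyp2e1. Of the falls, Tspan12, Fam47e, Hoatz and Abi3bp lost their calls with the actin difference as a covariate (adjusted p = 0.325, 0.0749, 0.0973 and 0.275) and on leaving out 1 Af array (0.0814, 0.0552 and 0.0509 without Af replicate 3 for the first 3, and 0.091 without Af replicate 2 for Abi3bp). Slc5a1, Fabp1 and Sult1d1 each have a second probe set with a smaller change (1.63, -1.92 and -1.73). All values of Rnase2a in air, and of Fabp1, Sult1d1, Fam47e, Hoatz and Cyp2e1 after Af, lie under the filter level. Their RefSeq promoters (GRCm38.p6, 250 bases before to 50 after the gene start, matched by symbol for 10 of the 12 rises and 10 of the 12 falls) were searched on both strands for 4 motifs. The STAT6 motif, TTC and GAA spaced by 4 bases, is in 6.95% of all 32851 promoters of that length, and it was in the promoter of Retnla alone among these genes. The RFX motif GTTGCCA, bound by factors of cilia genes, is in 4.38% of promoters and was found in those of Saa3, Slc5a1 and Fabp1. The forkhead motif TGTTTAC, in 3.65% of promoters, was found in that of Sult1d1, and the NF-kB motif, in 0.411%, in none. The 250 bases before the start are shown for both genes with a match in them, Retnla (chr16:48842359-48842608, plus strand) and Slc5a1 (chr5:33103969-33104218, plus strand), with the match in capitals.
Retnla: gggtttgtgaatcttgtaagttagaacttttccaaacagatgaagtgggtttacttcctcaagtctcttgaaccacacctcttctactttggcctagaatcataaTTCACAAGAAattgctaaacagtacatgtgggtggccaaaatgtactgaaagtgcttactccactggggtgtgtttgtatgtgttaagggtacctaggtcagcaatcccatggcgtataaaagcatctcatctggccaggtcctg
Slc5a1: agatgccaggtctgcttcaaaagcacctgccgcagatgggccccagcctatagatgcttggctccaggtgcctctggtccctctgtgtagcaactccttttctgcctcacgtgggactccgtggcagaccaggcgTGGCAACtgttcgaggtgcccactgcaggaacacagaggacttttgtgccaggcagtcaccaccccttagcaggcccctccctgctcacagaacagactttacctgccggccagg
The capitals start 145 bases before the gene start in Retnla, where they spell the STAT6 motif, and 115 bases before it in Slc5a1, where they are the RFX motif read on the opposite strand. A match describes these letters only.

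The type 2 ligands themselves were scarcely measurable. Of the 10 ligands and alarmins, 4 passed the filter on dim genes and 1, Il33, rose, with a median change of 0.45. Over the 3 above the filter in both groups 1 rose and the median was 0.004. Il4 and Il5 stayed at or near the level of dim probe sets, between 3.68 and 4.50 for Il4 and between 3.32 and 4.31 for Il5 over the 8 arrays. Il33 read 9.62, 9.22 and 10.10 on Af replicates 1, 2 and 3, and 8.16, 7.80, 7.91, 7.47 and 7.37 on the air arrays. All Af values lay above all air values, by 1.90 ± 0.61 on average (limma, adjusted p = 0.0482). That call stood just inside the threshold and was lost without any single array (adjusted p up to 0.246, without Af replicate 3). Il13 read 5.05, 4.89 and 5.35 against 4.13, 4.16, 4.06, 4.20 and 4.43. Its groups did not overlap either, but the change of 0.90 ± 0.31 did not pass the test (adjusted p = 0.0716). All air values of Il13 are under the filter level, so it passed through the Af arrays only, which favours this direction and lack of overlap.

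Among 12 tested receptors and signalling genes, 2 rose and none fell. Over the 9 above the filter in both groups 1 rose and the median was 0.40. Cish, a feedback inhibitor of cytokine signalling that STAT5 induces, read 8.41, 7.88 and 8.72 on the Af arrays and 7.18, 6.32, 6.71, 6.50 and 6.58 on the air arrays, a rise of 1.68 ± 0.35 (adjusted p = 0.0011). Il13ra2, a decoy receptor that binds IL-13, rose by 1.15 ± 0.34 (adjusted p = 0.0319, 0.273 without Af replicate 3 and 0.267 with the actin difference as a covariate), from an air mean at the dim end of the scale. Il13ra2 passed the filter through the Af arrays only, which sets its direction. Il4ra changed by -0.31 ± 0.22 (adjusted p = 0.505) and Stat6 by -0.16 ± 0.24 (adjusted p = 0.787), and neither passed. Both turned slightly positive with the actin difference as a covariate, still far from the threshold.

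The IL-4 and IL-13 target genes of macrophages rose in 8 of 16 tested members and fell in none, with a median change of 1.69. Over the 13 members above the filter in both groups 6 rose and the median was 1.32. Retnla, a secreted resistin-like protein of alternatively activated macrophages and airway cells, read 13.20, 12.65 and 12.96 on the Af arrays and 8.59, 7.17, 8.07, 8.55 and 8.69 on the air arrays. The Af values sit close to the top of the array scale, and the rise was 4.72 ± 0.33 (adjusted p = 5.39e-19). Arg1, the arginine-degrading enzyme of these macrophages, read 8.65, 6.05 and 8.19 against 4.25, 4.49, 4.83, 4.72 and 4.44. Af replicate 2 was well below the other Af arrays, though still above all air arrays, and Arg1 rose by 3.09 ± 0.60 (adjusted p = 4.54e-04). Chil3, a chitinase-like protein, read 11.46, 11 and 11.66 against 9.28, 8.86, 8.63, 8.61 and 7.95, a rise of 2.70 ± 0.36 (adjusted p = 2.86e-07). Rnase2a, an eosinophil-associated ribonuclease also called Ear11, stood near the floor in air, at 3.05, 3.03, 3.22, 3.16 and 2.82. It read 8.98, 7.29 and 8.94 on the Af arrays, a difference in signal of 5.35 ± 1.02 (adjusted p = 3.48e-04) for which no fold is given, since all air values are under the filter level. Rnase2a belongs to a family of near-identical genes, so its probe set may read relatives as well. Ccl22, a chemokine for T cells, rose by 2.05 ± 0.53, Chil4 by 2.33 ± 0.60, Pdcd1lg2, a ligand of the PD-1 receptor, by 1.70 ± 0.38 and Clec10a, a macrophage lectin, by 1.69 ± 0.53. Mrc1 (1.05 ± 0.64) and Alox15 (1.69 ± 0.63) were not called. Rnase2a, Pdcd1lg2 and Alox15 passed the filter through the Af arrays only, which favours higher Af values. Without Af replicate 3 the list held 4 rising members, without Af replicate 1 it held 5, and with the actin difference as a covariate it held 8.

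Epithelial IL-13 targets rose in 3 of 16 tested members and fell in none, with a median change of 0.58. Over the 11 members above the filter in both groups 2 rose and the median was 0.30. Slc26a4 encodes pendrin, an anion exchanger of the airway surface. It read 10.02, 9.15 and 10.53 on the Af arrays and 4.42, 4.33, 4.47, 4.45 and 4.35 on the air arrays, the largest difference in signal among the rises named, 5.50 ± 0.63 (adjusted p = 4.46e-09). Its air values lie about the filter level, so no fold is given. Chia1, an acidic chitinase, rose by 1.69 ± 0.42 (adjusted p = 0.00736, and 0.0809 without Af replicate 3). Sprr1a, a cornified-envelope protein, read 9.37, 8.40 and 9.0 against 4.77, 4.53, 6.68, 8.11 and 4.82. Its Af arrays were alike, while air replicates 3 and 4 were high, and it rose by 3.14 ± 0.57 (adjusted p = 1.96e-04). The mucin gene Muc5ac changed by 0.08 ± 0.67 (adjusted p = 0.969) and Clca1, a goblet cell product, by 1.88 ± 1.04 (adjusted p = 0.322), with a change of 0.09 for its other probe set. No member of the 7 tested goblet cell markers was called.

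Some markers split the arrays across both groups. Krt4, a keratin of stratified lining such as the oesophagus, read 11.48 on Af replicate 1 and 9.94 and 10.93 on air replicates 3 and 4, but 4.50 to 5.48 on the other 5 arrays. Skeletal muscle markers did so too: their mean over 11 genes was 8.93, 4.25 and 4.54 on Af replicates 1, 2 and 3, and 6.11, 4.71, 8.60, 8.67 and 10.7 on air replicates 1, 2, 3, 4 and 6. None of the 11 was called (median change -1.99, with 8 of them past the filter through the air arrays only), and 2 fell without Af replicate 1. Where this signal comes from was not tested. Of 14 tested stress keratins and envelope genes, 3 rose, Sprr1a, Krt8 (1.17 ± 0.25, adjusted p = 0.00168) and Krt7 (0.92 ± 0.29, adjusted p = 0.0428, 0.185 without Af replicate 1 and 0.0727 with the actin difference as a covariate). Krt8, a keratin of simple epithelium, read 9.74, 9.95 and 10.06 against 8.83, 8.75, 8.56, 8.60 and 9.01, so its rise did not follow the arrays that were high in Krt4.

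**Figure D2:**
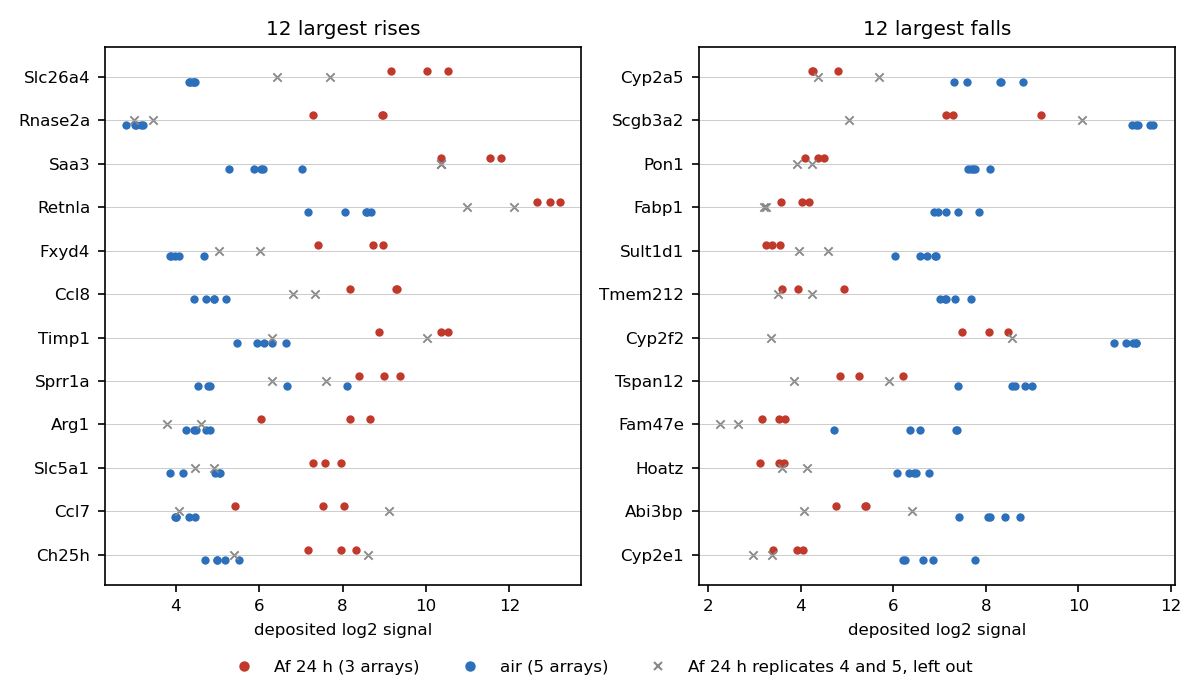
Deposited log2 signal (x axis) of the 12 largest rises and the 12 largest falls on each array, with Af 24 h in red, air in blue and Af replicates 4 and 5, which were left out, as grey crosses. In each row the red and blue points do not overlap, and for Rnase2a the left-out arrays, at 3.01 and 3.46, lie far below the other Af arrays.

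Of 6 tested chemokines that attract eosinophils and monocytes 2 rose, with a median change of 1.44. Ccl7 passed the filter through the Af arrays, and of the 4 above the filter in both groups 1, Ccl8, rose. Ccl8 read 9.27, 8.19 and 9.31 on the Af arrays and 4.91, 5.20, 4.92, 4.73 and 4.44 on the air arrays, a rise of 4.09 ± 0.76 (adjusted p = 2.65e-04). Ccl7 read 8.03, 5.43 and 7.52 against 4.32, 4.02, 4.47, 4.02 and 3.98, a rise of 2.83 ± 0.50 (adjusted p = 1.32e-04). Both kept apart from air on every array, and Af replicate 2 was the lowest of the Af arrays in each. The eotaxins Ccl11 and Ccl24, ligands of the eosinophil receptor CCR3, overlapped because of that array. Ccl11 read 7.50, 5.69 and 7.62 against 5.41, 5.32, 5.98, 5.53 and 5.38 (1.41 ± 0.52, adjusted p = 0.0954), and Ccl24 read 6.41, 4.71 and 6.72 against 4.91, 4.67, 4.67, 4.57 and 4.78 (1.22 ± 0.49, adjusted p = 0.133). Without Af replicate 2, 4 of the 6 chemokines rose, and with the actin difference as a covariate 3 did.

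Of 12 tested inflammatory chemokines and cytokines, 4 rose and 1 fell, with a median change of 0.67, and of the 9 above the filter in both groups 3 rose and 1 fell. Ccl2, which attracts monocytes, read 6.93, 5.93 and 7.35 against 5.20, 4.44, 4.91, 4.83 and 4.73, a rise of 1.91 ± 0.39 (adjusted p = 7.82e-04). Cxcl10, an interferon-induced T cell chemokine, read 7.58, 6.92 and 7.27 against 5.28, 5.37, 5.55, 5.09 and 5.61, a rise of 1.88 ± 0.41 (adjusted p = 0.002). The groups were apart on every array for both genes. Ccl4 rose by 1.53 ± 0.30 (adjusted p = 4.82e-04) and the cytokine Lif by 1.56 ± 0.39 (adjusted p = 0.00887, and 0.0989 without Af replicate 3), although the 3 probe sets of Lif ranged from -0.07 to 1.56. Ccl4 passed the filter through the Af arrays only, which sets its direction. Cxcl17, a chemokine of mucosal epithelium, fell by 1.82 on the log2 scale (SE 0.57, adjusted p = 0.0429), a call lost without Af replicate 3 (adjusted p = 0.176) and with the actin difference as a covariate (0.292). None of 11 tested chemokine and cytokine receptors was called. Of 16 interferon-stimulated genes only Cxcl10 and the immunoproteasome subunit Psmb9 (1.74 ± 0.34, adjusted p = 5.01e-04) rose, where 3.08% of all genes rose. The 3 probe sets of Psmb9 ranged from 0.17 to 1.74.

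Of 11 tested acute-phase genes 4 rose and 1 fell, with a median change of 1.32, and of the 9 above the filter in both groups 3 rose and 1 fell. Saa3, a serum amyloid made by macrophages and epithelium in the lung, read 11.53, 10.36 and 11.79 on the Af arrays and 7.03, 6.04, 5.88, 5.28 and 6.09 on the air arrays, a rise of 5.16 ± 0.63 (adjusted p = 2.76e-08). Lrg1 read 7.84, 8.27 and 8.01 against 6.15, 5.96, 5.69, 5.19 and 5.42, a rise of 2.36 ± 0.52 (adjusted p = 0.00229). Serpina3n, a protease inhibitor, rose by 2.36 ± 0.64 and Saa2 by 2.13 ± 0.65, and both calls were lost without Af replicate 3 (adjusted p = 0.124 and 0.239). The other probe set of Saa2 changed by 0.72, and Saa2 passed the filter through the Af arrays only, which sets its direction. Hp, haptoglobin, was the member that fell. It read 9.77, 9.96 and 9.78 against 11.08, 11.11, 10.95, 11.02 and 11.42, a change of -1.28 ± 0.32 (adjusted p = 0.0101). Hp is also a club cell marker, and it moved with that list. The metal-binding Mt1 rose by 1.42 ± 0.31 (adjusted p = 0.00276) and the haem-degrading Hmox1 by 0.96 ± 0.28 (adjusted p = 0.0246, and 0.131 without Af replicate 1). They were the 2 of 9 metal-handling genes called, and the other probe set of Mt1 changed by 0.69.

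Genes of tissue remodelling were led by Timp1, an inhibitor of matrix metalloproteinases. It read 10.35, 8.87 and 10.52 against 6.64, 5.94, 6.11, 5.48 and 6.30, a rise of 3.82 ± 0.67 (adjusted p = 1.33e-04). The proteases Adamts4 and Adam8 rose too, Adamts4 by 2.61 ± 0.61 and Adam8 by 1.70 ± 0.42, and both calls were lost without Af replicate 3 (adjusted p = 0.128 and 0.119). The other probe set of Adamts4 changed by 0.35. Timp3, an inhibitor that stays bound to matrix, fell by 1.70 (SE 0.48, adjusted p = 0.0208), a call lost without Af replicate 2 (0.143) and with the actin difference as a covariate (0.301). They were the genes called among 13 tested proteases and inhibitors, with a median change of 0.24. Of 16 matrix and repair genes 1, Ccn1, rose (1.58 ± 0.41, adjusted p = 0.013, and 0.0694 without Af replicate 3), where 3.08% of all genes rose. Dcn, the small proteoglycan decorin of fibroblasts, read 7.28, 6.28 and 5.91 against 9.06, 8.48, 9.41, 9.20 and 9.46, a fall of 2.64 (SE 0.46, adjusted p = 1.09e-04). Dcn and Lum were the 2 of 15 fibroblast markers that fell (median change -0.90), and Lum was lost without Af replicate 2 (adjusted p = 0.234) and with the actin difference as a covariate (0.182). Lum passed the filter through the air arrays only, which sets its direction. Of the 14 fibroblast markers above the filter in both groups 1, Dcn, fell, and the median was -0.79.

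Other rises included enzymes and transporters. Ch25h, which makes 25-hydroxycholesterol, read 7.96, 7.16 and 8.32 against 5.0, 4.99, 5.53, 4.71 and 5.18, a rise of 2.73 ± 0.42 (adjusted p = 1.21e-05). Ptges, a prostaglandin E synthase, rose by 2.04 ± 0.43 (adjusted p = 0.00144). Fxyd4, a regulator of the sodium pump, read 8.73, 7.42 and 8.97 against 4.69, 3.99, 3.87, 4.09 and 3.89, a rise of 4.27 ± 0.73 (adjusted p = 8.47e-05). Fxyd4 passed the filter through the Af arrays only, which sets its direction, and its change is a difference in signal. Slc5a1, a sodium and glucose cotransporter, rose by 3.00 ± 0.79 (adjusted p = 0.013, and 0.103 without Af replicate 3). Fxyd4 and Slc5a1 both carry or regulate ion movement, as Slc26a4 does. Of 16 tested genes of airway ion transport and mucus clearance, however, 1 rose, Slc26a4, and 1 fell, the water channel Aqp4 (-2.26 ± 0.54, adjusted p = 0.0056), and the median change was -0.07. Slc26a4 passed the filter through the Af arrays only and Aqp4 through the air arrays only. Of the 12 above the filter in both groups none was called, and the median was -0.19. The 3 probe sets of Aqp4 ranged from -2.26 to -0.05, and its call was lost without Af replicate 3 (adjusted p = 0.0554) and with the actin difference as a covariate (0.0652). Msr1, a macrophage scavenger receptor, was the single gene called among 14 fungal and pattern recognition receptors (1.29 ± 0.29, adjusted p = 0.00364), where 5.38% of all genes were called. The probe sets of Ptges ranged from 0.72 to 2.04 and those of Msr1 from 0.45 to 1.29.

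Club cell markers fell in 10 of 14 tested members, with a median change of -1.93. Of the 13 above the filter in both groups 9 fell, all 13 were lower, and the median was -1.57. Of all 10917 such genes 224 fell and 4874 were lower. In whole lung, fewer cells of a type and less RNA per cell cannot be told apart. Scgb3a2, a secretoglobin, read 7.13, 9.19 and 7.29 on the Af arrays and 11.17, 11.24, 11.29, 11.55 and 11.62 on the air arrays, a fall of 3.50 (SE 0.53, adjusted p = 1.21e-05). Cyp2f2, a cytochrome that activates inhaled naphthalene, read 8.07, 8.49 and 7.49 against 11.19, 10.78, 11.04, 11.24 and 11.25, a fall of 3.08 (SE 0.55, adjusted p = 1.79e-04). Cckar, a cholecystokinin receptor, read 5.05, 7.04 and 4.69 against 8.12, 8.09, 8.32, 8.49 and 8.97, a fall of 2.80 (SE 0.49, adjusted p = 1.33e-04). Af replicate 2 kept the highest level of the Af arrays in all of these, as it did in the list mean, which was 7.54, 8.24 and 7.24 on Af replicates 1, 2 and 3 and 9.26 to 9.88 on the air arrays. Scgb1a1, the most abundant club cell transcript, read 12.06, 12.80 and 11.87 against 13.09, 12.80, 12.96, 13.09 and 13.20, near the top of the scale. Its fall of 0.78 (SE 0.19, adjusted p = 0.00723) was lost without Af replicate 3 (adjusted p = 0.165). Without Af replicate 3, 5 of the 14 markers fell, without Af replicate 1 it was 6, and with the actin difference as a covariate it was 6, with a median change of -1.54.

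Enzymes of xenobiotic metabolism fell in 7 of 27 tested members, with none rising and a median change of -1.30. The air arrays alone carried 7 of these through the filter, Cyp2a5, Pon1, Sult1d1 and Cyp2e1 among them, and of the 20 above it in both groups 3 fell, with a median of -0.96. Of the 7 that fell, Cyp2a5, Cyp2f2 and Cbr2, are also on the club cell list. Cyp2a5 read 4.25, 4.81 and 4.27 against 8.30, 7.31, 7.60, 8.33 and 8.80, the largest fall named, 3.62 (SE 0.77, adjusted p = 0.00168), and its probe set can read related cytochromes. Pon1, a paraoxonase, read 4.37, 4.51 and 4.10 against 8.09, 7.72, 7.68, 7.61 and 7.76, a fall of 3.45 (SE 0.68, adjusted p = 5.81e-04). The groups lay over 2 units apart in both genes. Sult1d1, a sulfotransferase, fell by 3.24 (adjusted p = 0.0129) and Cyp2e1, an ethanol-metabolizing cytochrome, by 2.96 (adjusted p = 0.022). Their calls were lost on leaving out an Af array (adjusted p up to 0.0677 and 0.111, without Af replicates 3 and 2) and with the actin difference as a covariate (0.0887 and 0.304). With that covariate 3 of the 27 enzymes fell, as did 3 without Af replicate 3 and 4 without Af replicate 2.

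Ciliated cell markers fell in 6 of 13 tested members, with a median change of -1.29. Of the 7 above the filter in both groups 4 fell and 6 were lower without overlap, and the median was -1.65. Of all 10917 such genes 224 fell and 1614 were lower without overlap. Lrrc23, a protein of the ciliary radial spoke, read 4.58, 5.16 and 5.42 against 6.61, 7.20, 7.37, 7.77 and 7.78, a fall of 2.30 (SE 0.44, adjusted p = 4.29e-04). Ak7, an adenylate kinase of cilia, read 5.88, 7.36 and 5.92 against 8.29, 8.47, 8.36, 8.70 and 8.72, a fall of 2.12 (SE 0.46, adjusted p = 0.00184). Both genes were lower on every Af array, with Af replicate 2 nearest to air in Ak7. Tmem212, named among the largest falls, read 3.95, 3.60 and 4.93 against 7.01, 7.14, 7.33, 7.12 and 7.68, a fall of 3.09 (SE 0.58, adjusted p = 2.65e-04). Foxj1, the master regulator of motile cilia, changed by -1.29 ± 0.53 and was not called (adjusted p = 0.156). Tmem212 and Foxj1 passed the filter through the air arrays only, which favours lower Af values, and their changes are differences in signal. Without Af replicate 3, 2 ciliated markers fell, without Af replicate 1 or 2 it was 3, and with the actin difference as a covariate it was 3.

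**Figure D3:**
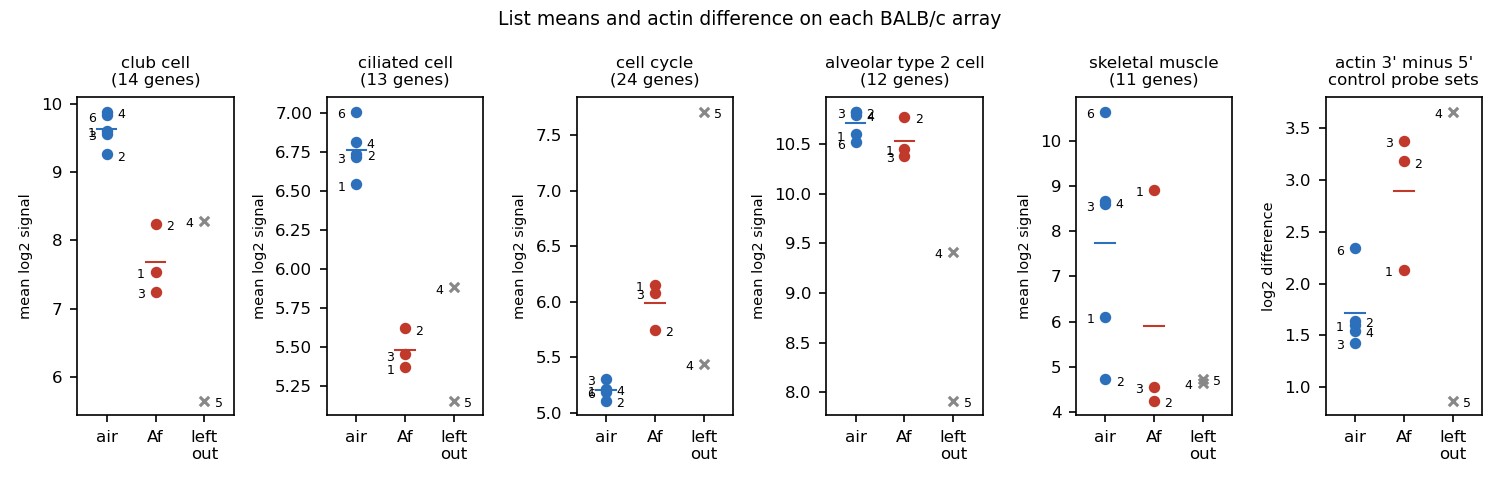
Mean log2 signal of 5 gene lists and the actin 3' minus 5' difference (log2) on each BALB/c array, 1 panel each, with the replicate number beside each point and a bar at the mean of the air (5) and Af (3) arrays. Club and ciliated means are lower and cell cycle means higher on every Af array, the alveolar type 2 means overlap, the skeletal muscle means split both groups, and the left-out arrays (9.41 and 7.92) lie lowest in the alveolar type 2 panel. Those arrays were left out on the alveolar type 2 markers, so the overlap in that panel is not independent of that choice.

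Of 24 tested cell cycle genes 5 rose and none fell, with a median change of 0.78. Of the 18 above the filter in both groups 4 rose, all 18 were higher, and the median was 0.83. Of all 10917 such genes 378 rose and 6042 were higher. Mki67, a marker of dividing cells, read 7.84, 7.51 and 8.04 against 6.15, 5.62, 6.34, 6.74 and 6.51, a rise of 1.53 ± 0.39 (adjusted p = 0.0115). Birc5, which encodes survivin, read 7.53, 6.07 and 7.46 against 5.29, 5.24, 5.55, 5.50 and 4.95, a rise of 1.71 ± 0.46 (adjusted p = 0.0142). The groups did not overlap for either gene. Mcm3 and Mcm5, subunits of the replicative helicase, rose by 1.10 ± 0.29 and 1.43 ± 0.42, and the kinase Cdk1 by 1.09 ± 0.30. Mcm5 passed the filter through the Af arrays only, which sets its direction. The 2 probe sets of Mcm5 gave 0.17 and 1.43, and those of Mcm3 0.55 and 1.10. These calls depended on single arrays: none of the 24 rose without Af replicate 3, 2 rose without Af replicate 1, 3 without Af replicate 2, and 1 with the actin difference as a covariate, where Mki67 had an adjusted p of 0.196.

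Immediate early genes rose in 6 of 19 tested members, with none falling and a median change of 0.81, and in 5 of the 18 above the filter in both groups (median 0.72). Ier3 (1.71 ± 0.49), Atf3 (1.67 ± 0.44), Junb (1.56 ± 0.39) and Egr1 (1.42 ± 0.46) had the largest changes. Each is a fast response gene, and all but Ier3 encode transcription factors. Junb read 5.46, 5.40 and 5.78 against 3.34, 4.30, 4.17, 4.07 and 4.08. All air values of Junb are under the filter level, so it passed through the Af arrays only, which sets its direction. Without Af replicate 3 the list held 1 rising member, without Af replicate 1 it held 2, and with the actin difference as a covariate it held 3.

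Genes of metabolism and protein folding gave 1 or 2 calls a list, where 5.38% of all genes were called. Of 16 genes of the unfolded protein response and endoplasmic reticulum chaperones, Atf4, a translation-controlled stress factor, rose by 1.36 ± 0.38 (adjusted p = 0.0206) and Pdia6, a disulfide isomerase, by 0.89 ± 0.22 (adjusted p = 0.00722). Both were lost on leaving out an Af array (adjusted p = 0.173 without Af replicate 3 and 0.0593 without Af replicate 1), and the median change was 0.36. Of 14 glycolysis and hypoxia genes, Ldha, which makes lactate, rose by 0.78 ± 0.20 and Adm, a hypoxia-induced peptide hormone, by 1.43 ± 0.46, and both were lost likewise (adjusted p = 0.0936 and 0.394). Cyp51, of sterol synthesis, rose by 1.31 ± 0.37 and Cox5a, of respiration, by 0.88 ± 0.25, each the single call among 15 and 14 genes, and each lost without Af replicate 3 (adjusted p = 0.164 and 0.161). The antioxidant gene Cat, catalase, fell by 0.79 (SE 0.24, adjusted p = 0.0348, and 0.258 without Af replicate 3), while Nqo1 and Gclm, other NRF2 targets, changed by -0.90 ± 0.45 and -0.94 ± 0.31 and were not called. Gclm passed the filter through the air arrays only. Of the 14 tested NRF2 antioxidant genes 1, Hmox1, rose and 1, Cat, fell. Of these 14 genes 6 were higher and 8 lower, with a median change of -0.17. Cfp, properdin of the complement cascade, rose by 1.37 ± 0.41 (adjusted p = 0.0329, and 0.162 without Af replicate 3), the single call among 13 complement genes. The probe sets ranged from 0.26 to 1.36 for Atf4, 0.47 to 0.89 for Pdia6, -0.17 to 1.31 for Cyp51, 0.48 to 0.88 for Cox5a and -2.87 to -0.79 for Cat.

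Clock and glucocorticoid genes went both ways. Dbp, an output gene of the circadian clock, read 6.19, 5.12 and 5.78 against 6.99, 7.08, 7.26, 7.25 and 7.96, a fall of 1.61 (SE 0.39, adjusted p = 0.00601), and Per3 fell by 1.44 (SE 0.40, adjusted p = 0.0203). Bhlhe40, a repressor in the same circuit, read 9.39, 9.40 and 9.68 against 7.49, 7.54, 7.70, 7.88 and 8.30, a rise of 1.71 ± 0.39 (adjusted p = 0.00332). They were the 3 of 15 clock genes called, and the labels give hours after exposure but no hour of the day. With the actin difference as a covariate none of the 3 passed (adjusted p = 0.0579, 0.0737 and 0.0641). Dbp and Per3 also lost their calls without Af replicates 2 and 1 (adjusted p = 0.0856 and 0.117), and the 5 probe sets of Per3 ranged from -1.44 to 0.28. Of 13 glucocorticoid-responsive genes, Mt1 rose and Tsc22d3 (-2.10 ± 0.49) and Sgk1 (-0.81 ± 0.25) fell, with a median change of -0.65. Both falls were lost with the actin difference as a covariate (adjusted p = 0.124 and 0.459), and the 3 probe sets of Tsc22d3 ranged from -2.10 to -0.19.

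Resident and recruited cells were followed through their markers. The alveolar type 2 markers changed by a median of 0.02 and none of 12 was called. Af replicates 4 and 5 were left out on these markers, so this result is not independent of that choice. Sftpd, which encodes surfactant protein D and is disrupted in the SP-D-/- strain, read 10.65, 10.69 and 10.52 against 10.47, 10.41, 10.17, 9.79 and 9.61 (0.53 ± 0.60, adjusted p = 0.705). With Af replicates 4 and 5 kept, Sftpd changed by -0.42 (limma, adjusted p = 0.614). None of 11 alveolar type 1 markers was called (median change -0.49), and of 20 endothelial markers 1, Hey1, fell (-1.33 ± 0.37, adjusted p = 0.0208, and 0.224 with the actin difference as a covariate), where 2.3% of all genes fell. H2-Ea, a class II gene that C57BL/6 mice do not express, read 8.29 to 9.57 on the 8 arrays, as expressed in BALB/c.

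Vessel wall and lining markers fell singly: Myh11 of smooth muscle by 1.68 (SE 0.50), Mmrn1 of lymphatic vessels by 1.17 (SE 0.33) and Gpm6a of mesothelium by 2.51 (SE 0.72), out of 10, 5 and 5 tested, where 2.3% of all genes fell. Mmrn1 passed the filter through the air arrays only, which sets its direction, and of the 2 lymphatic markers above the filter in both groups none was called. With the actin difference as a covariate none of Myh11, Mmrn1 and Gpm6a passed (adjusted p = 0.389, 0.11 and 0.355), and the other probe sets of Myh11 and Mmrn1 changed by 0.03 and 0.08.

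The eosinophil granule genes Epx and Prg2 were below the filter, at 3.70 to 4.24 and 3.21 to 3.63 over the 8 arrays, with Af and air means of 3.95 and 3.89 for Epx. None of the 5 eosinophil markers tested was called. None of 12 neutrophil markers was called either, and S100a8 changed by 0.04 ± 0.89, with a sign that several alternatives turned. Of 6 tested mast cell and basophil markers 1 rose and 1 fell, with a median change of -0.22. Of the 5 above the filter in both groups none rose and 1 fell, and the median was -0.32. Mcpt8, a protease of basophils, rose: it read 5.74, 5.71 and 6.37 against 4.19, 4.38, 4.40, 4.13 and 4.16 (1.69 ± 0.40, adjusted p = 0.00493, and 0.0874 without Af replicate 3). All air values of Mcpt8 are under the filter level, so it passed through the Af arrays only, which sets its direction. Gata2, a factor of mast cells and basophils that vessels also express, fell by 1.35 (SE 0.42, adjusted p = 0.0404, and 0.466 with the actin difference as a covariate), and its other probe set changed by -0.40. Cpa3, Ms4a2, Fcer1a, Tpsab1 and Mcpt4, other markers on this list, were below the filter. Of 12 alveolar macrophage markers, Chil3 rose and Fabp1, a fatty acid binding protein, fell by 3.33 (SE 0.80, adjusted p = 0.00604, 0.0645 without Af replicate 3 and 0.0579 with the actin difference as a covariate). Fabp1 passed the filter through the air arrays only, and of the 9 above the filter in both groups 1 rose and none fell. Of 8 dendritic cell markers Ccl22 and Fscn1 rose, with Fscn1 lost with the actin difference as a covariate (adjusted p = 0.225) and its 4 probe sets ranging from -0.19 to 1.21, while no T cell, B cell, NK cell or MHC class II marker among 10, 8, 8 and 9 tested was called.

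**Figure D4:**
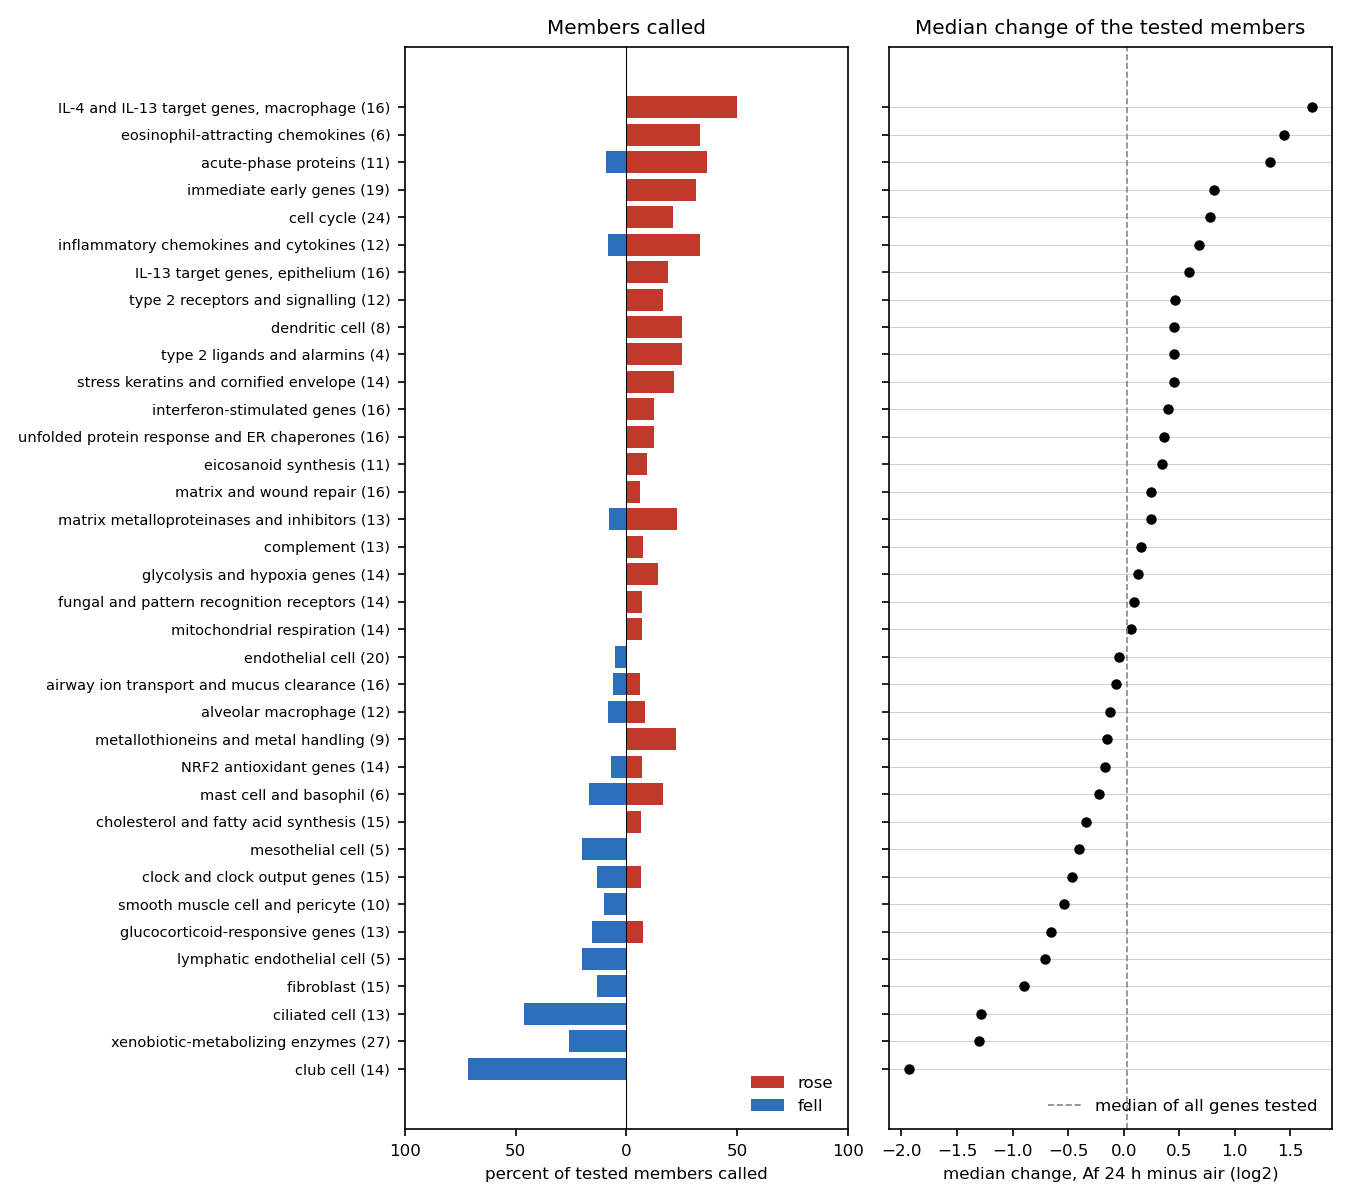
Gene lists with at least 1 called member and 4 or more tested members (number tested in brackets), with the percent of tested members that rose (red, right) or fell (blue, left) in the first panel and the median change (log2) in the second, ordered by the median. Club cell markers lie lowest at -1.93 and macrophage targets of IL-4 and IL-13 highest at 1.69 over all tested members, and the dashed line is the median of all genes, 0.03.

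The same contrast was made in C57BL/6 (4 arrays against 6) and SP-D-/- mice (6 against 5), which share no arrays with BALB/c. Of the 12924 genes 1071 rose in C57BL/6 (8.29%) and 1762 fell (13.6%), and 291 rose in SP-D-/- (2.25%) and 502 fell (3.88%). Of the 398 genes that rose in BALB/c, 270 also rose in C57BL/6, 164 in SP-D-/- and 139 in both. Of the 297 that fell, 247 also fell in C57BL/6, 145 in SP-D-/- and 137 in both. The direction was the same in C57BL/6 for 393 of the rising and 293 of the falling genes, and in SP-D-/- for 390 and 293. A test of the difference in response called none of 12924 genes (0.0%) between BALB/c and C57BL/6 (limma, 415 at an unadjusted p under 0.05) and 1 (0.00774%) between BALB/c and SP-D-/- (273 at an unadjusted p under 0.05). A single gene was called in opposite directions in BALB/c and C57BL/6, Sphk2, a sphingosine kinase, chosen after its values were seen: -0.84 ± 0.26 in BALB/c and 0.61 in C57BL/6, with an adjusted p of 0.261 for the difference.

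The gene called between BALB/c and SP-D-/- was Retnla. Its response was 4.72 in BALB/c, 2.71 ± 0.29 in C57BL/6 and 1.25 ± 0.27 in SP-D-/-, and the response in BALB/c exceeded that in SP-D-/- by 3.47 ± 0.43 (adjusted p = 9.65e-08). The air levels differed between the strains, at 8.22 ± 0.63 (SD, n = 5) in BALB/c, 9.72 ± 0.29 (n = 6) in C57BL/6 and 11.4 ± 0.36 (n = 5) in SP-D-/-. The levels after Af were close together, at 12.9 ± 0.27 (n = 3), 12.4 ± 0.79 (n = 4) and 12.6 ± 0.29 (n = 6), all near the highest signal of the arrays, 13.5. Saa3 had a similar order, with responses of 5.16, 4.42 and 1.52, but the difference between BALB/c and SP-D-/- of 3.64 ± 0.82 did not pass (adjusted p = 0.138), and its SP-D-/- air level was 8.29 ± 0.94 against 6.06 ± 0.63 in BALB/c. Lrg1 rose in BALB/c by 2.36 and changed by 0.49 in C57BL/6 and -0.12 in SP-D-/-, where neither passed, and neither difference between strains passed (adjusted p = 0.946 and 0.886).

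**Figure D5:**
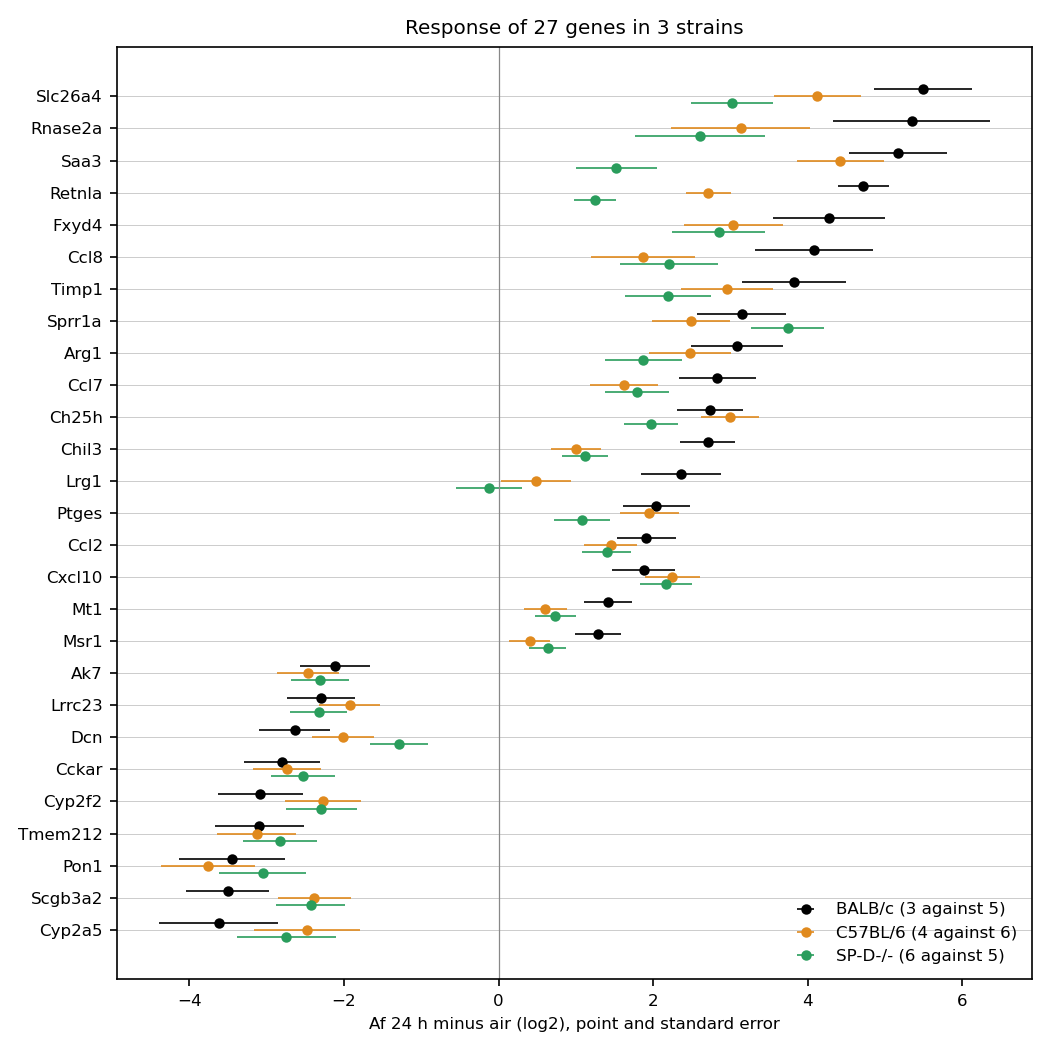
Change 24 h after Af against air (log2, point and SE from the fit) in BALB/c, C57BL/6 and SP-D-/- mice for the 27 named genes that kept their call in BALB/c under every alternative tried, ordered by the BALB/c change. Retnla is the gene whose BALB/c and SP-D-/- responses differed by test, and the signs match in all strains except for Lrg1 in SP-D-/-.

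BALB/c mice sampled 168 h after the challenge (6 arrays) were compared with the same air arrays, so the values below are set side by side only. Slc26a4 stood at 9.90 ± 0.70 at 24 h and 8.93 ± 0.82 at 168 h, Retnla at 12.9 and 12.5, and Chil3 at 11.4 and 11.9. Timp1 stood at 9.91 and 6.60, with an air mean of 6.09, and Ccl7 at 6.99 and 4.16, with an air mean of 4.16. Clca1, not called at 24 h, stood at 5.65 and then 10.1, and its air mean was 3.77. Scgb3a2 stood at 7.87 and 10.7, with an air mean of 11.4, and Cyp2f2 at 8.02 and 10.5, with an air mean of 11.1.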

How the data were processed

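Left lung lobe RNA, amplified with a NuGEN kit, was read on Affymetrix HT Mouse430PM arrays, per the labels' protocols. The authors deposited log2 signals for 45141 probe sets, and their sorted values are identical on all arrays. Which software made them is not given in the sources used here. Only 3 Af arrays limit the precision. Each gene was represented by its brightest probe set among those with 1 gene symbol, and 12924 of 17097 genes passed a filter (log2 above 4.45, the 40th percentile, on at least 3 of the 8 arrays). limma 3.58.1 in R 4.3.3 fitted the means of the 18 groups on 87 arrays, with Benjamini-Hochberg adjustment, after a check on simulated data. The members and lists were chosen with earlier results of these data known. Named were the 12 largest rises and falls without overlap, up to 4 called members of each list, and a set of type 2, club cell and related genes whatever their test. Sequences are from RefSeq (GRCm38.p6). Same-numbered arrays did not deviate together (correlations -0.376, -0.19 and -0.097), so no pairing was used. Alternatives covered normalization, probe set, filter, arrays, weights, covariates, the replicate block and single arrays, and list counts over members above the filter in both groups were added after seeing the data.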

Additional observations from a re-analysis of the deposited data

Results flagged for a closer look

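Among the 5 air arrays, 9 of 96 sets of values checked had an array far from the others, where chance marks about 1 in 20. Air replicate 1 was high in Fxyd4 (4.69, others 3.87 to 4.09) and Clca1 (4.74, others 3.30 to 3.70) and low in Junb (3.34, others 4.07 to 4.30). Air replicate 6 was high in Dbp (7.96, others 6.99 to 7.26) and Cox5a (10.17, others 9.03 to 9.33) and low in Tspan12 (7.40, others 8.56 to 8.99). The actin difference was also highest on air replicate 6, at 2.34 against 1.43 to 1.64. Myh11 was high on air replicate 4 (7.91, others 7.47 to 7.56) and Stat6 on air replicate 3 (6.11, others 5.91 to 5.96). The response of Retnla was larger in BALB/c than in SP-D-/- by 3.47 log2 units in a test of the difference itself.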

How the results depend on the processing

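The 695 calls between Af and air became 220 with the actin difference as a covariate (167 rose, 53 fell), 1126 with the spike level, 330 with both, 4951 with array weights, 3155 with only the groups compared in the fit and 1880 (595 rose, 1285 fell) with Af replicates 4 and 5 kept. Leaving out single arrays gave 166 to 666 calls. With the replicate number as a block 930 genes were called (470 rose, 460 fell), and with cyclic loess 813 (422 rose, 391 fell). The cause of these shifts was not tested. Between BALB/c and C57BL/6 the response differed in 11 genes with array weights, 2 with Af replicates 4 and 5 kept and 1 with the spike level, alone or with the actin difference, against 0. Between BALB/c and SP-D-/- the 1 call became 437 with array weights and 2 with 3 further arrays left out, and 1 to 3 on leaving out single arrays (3 without SP-D-/- air replicate 2). Of 85 called genes named, none reversed under the alternatives run, 27 kept the call in all of them and 35 kept it without Af replicate 3. Reversals were in uncalled genes: Sftpd at -0.42 with Af replicates 4 and 5 kept, Il4ra at 0.014 and Stat6 at 0.12 with the actin difference, and Stat6 at 0.093 with both covariates. Muc5ac was -0.15 with the actin difference, -0.069 with array weights, -0.013 with Af replicates 4 and 5 kept, -0.16 with both covariates and -0.12 to 0.21 on leaving out single arrays (lowest without Af replicate 2). S100a8 was -0.067 with array weights, -0.18 with the replicate block, -1.01 with Af replicates 4 and 5 kept, and -0.22, -0.17 and -0.06 without Af replicate 1, air replicate 1 and air replicate 6 (up to 0.33, without Af replicate 2). In simulated data with the residual spread of the fit, 14% of changes of 1 log2 unit and 80% of changes of 2 log2 units were called. With 3 Af arrays, most changes of 2-fold and smaller and some of 4-fold are therefore likely missed, also in genes near the dim end of the scale.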

Other observations

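Several cytokine genes stayed below the filter on dim genes but reached higher values on some arrays. Il6 ranged from 2.12 to 6.96 over the 8 arrays, with an Af mean of 4.97 and an air mean of 2.56. The neutrophil chemokine Cxcl1 had an Af mean of 5.14 and an air mean of 3.48, and Cxcl5 of 4.26 and 2.57. These genes were not tested. Il17a, Tnf and Csf3 stayed below 4.25 on all 8 arrays.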
